A study of Mus musculus with 6 samples.

Results

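The proteasome is the large protease that degrades ubiquitin-tagged proteins in the cytosol and the nucleus. Its barrel-shaped core particle is built from rings of alpha subunits (Psma genes) and beta subunits (Psmb genes), and the cutting sites lie on beta subunits inside the barrel. The regulatory particle caps the barrel, and its base of ATPases (Psmc genes) and its lid (most Psmd genes) bind, unfold and deubiquitinate substrates. Dedicated chaperones assist assembly, and alternative activators (Psme genes) and an inhibitor (Psmf1) can occupy the ends of the core. In B lineage cells the proteasome also disposes of short-lived cell cycle and signalling proteins.

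The genes described here are those whose symbol on the array starts with Psm, followed by a letter from a to g and a number. The interferon-inducible immunoproteasome genes Psmb8, Psmb9 and Psmb10 were left out. This gave 58 probes of 46 genes among the 55681 probes of the array. They comprise 16 probes of 14 core genes, 21 probes of 17 regulatory particle genes, 10 probes of 7 assembly chaperone genes and 8 probes of 5 activator or inhibitor genes. The remaining 3 probes belong to the tissue-specific core genes Psma8 and Psmb11 and to Psmc3ip. Psmc3ip shares the letters of the symbol but is no proteasome subunit. Its probe is still counted among the proteasome probes below, and its own values are given separately. Of the 58 probes, 56 probes of 44 genes passed the filter on dim probes and were tested, among 20168 probes tested in all. The other two, the testis subunit Psma8 and the thymus subunit Psmb11, were not well above background on any of the 6 arrays. The remaining 56 were well above background on all 6 arrays, so the test did not depend on a group in which they were high.

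RNA came from 1676 cells, a mouse pre-B cell line of genotype SLP-65-/- LAT-/- that was kept in IL-7 in every group and selected with puromycin after retroviral infection. The control group carried an empty control vector, the miR-26a group a vector expressing the human gene hsa-miR-26a-2, and the miR-26 sponge group a construct with binding sites meant to sequester the miRNA. Each group had 2 single-colour Agilent arrays, 1 from each of 2 independent experiments with separately generated cell clones, and all 6 arrays lay on 1 slide. No scrambled sponge was analysed here, so the effect of carrying a sponge transcript cannot be told apart from that of losing miR-26. Mature miR-26 was not analysed here either. The arrays of experiment 1 lay in 1 row of the slide and those of experiment 2 in the other, and each group had its own column, so position cannot be told apart from experiment or from group.

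Of the 59305 spots on an array, 28823 to 29800 were well above background and none was saturated. The 7 pre-B cell markers (such as Vpreb1, Igll1 and Cd79a) were above background on every array and none of them passed the test in any contrast. Their summed log2 signal was 18.69 to 18.78 in control, 18.66 to 18.74 with miR-26a and 18.66 to 18.81 with the sponge. Of 4 T cell markers, Cd3e and Cd4 were above background on all arrays and Cd8a on none, and the summed signal was 10.43 to 10.46 in control, 10.34 to 10.47 with miR-26a and 10.06 to 10.23 with the sponge. Of 5 myeloid markers, Itgam and Csf1r were above background on all arrays, Cd14 on none, and the summed signal was 11.66 to 12.09 in control, 11.79 to 12.06 with miR-26a and 11.40 to 12.02 with the sponge. The sum uses the brighter of the 2 tested Itgam probes, which did not pass the test with miR-26a (adjusted p = 0.744, limma). The dimmer Itgam probe did pass it. None of 3 erythroid markers was tested. The probes of Blnk (SLP-65) and Lat were above background on all 6 arrays, with log2 signals of 14.90 to 15.61 and 10.10 to 10.30. Whether they lie in the deleted part of either gene is not known here, so they check nothing about the genotype. The Blnk signal was lower with miR-26a, by -0.49 against control (adjusted p = 0.0275) and -0.61 against the sponge (adjusted p = 0.0123, both limma). Lat did not pass the test in any contrast.

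A miRNA finds its targets mainly through bases 2 to 8, the seed. The mouse miR-26a and miR-26b are shown with the seed in capitals (mature sequences from RefSeq), because the sponge is directed at both. The sequence of the human construct is not shown here.
mmu-miR-26a-5p: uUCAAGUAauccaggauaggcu
mmu-miR-26b-5p: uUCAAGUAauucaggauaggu
The seed is shared. Its complement TACTTGA, read on the strand of the probe, was in 0 of the 58 proteasome probes and in 0.431% of all probes of the array, and the overlapping word ACTTGAA was in 0 of 58 and in 0.70% of all. A probe covers only 60 bases of a transcript, so this says nothing about the rest of the mRNA.

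Proteasome genes can be transcribed together through the factor Nfe2l1 (Nrf1), which is known to bind antioxidant response elements in their promoters. For 37 of 45 genes (Psmc3ip left out) RefSeq gave a promoter window of 300 bases, from 250 before to 50 after the start of the gene (GRCm38.p6). The letters TGACNNNGC, searched on both strands, were in 6 of the 37 windows, which is 16.2%, and in 3781 of the windows of all 27025 genes. The members with the word were Psmb5, Psmb6, Psmc6, Psmd12, Psmd9 and Psme4. The word is shown in capitals for 3 examples, the catalytic subunits Psmb5 and Psmb6 and the activator Psme4, with flanking bases on the gene's strand:
Psmb5 (chr14:54618024-54618052, minus strand): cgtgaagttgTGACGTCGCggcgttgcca
Psmb6 (chr11:70525338-70525366, plus strand): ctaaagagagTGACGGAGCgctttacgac
Psme4 (chr11:30771758-30771786, plus strand, word on the opposite strand): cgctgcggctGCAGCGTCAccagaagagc
The CCAAT word, searched the same way, was in 13 of 37 windows (35.1%) against 41.1% of all. Of the core genes with a window, 6 of 11 held CCAAT and 2 of 11 TGACNNNGC, and of the regulatory particle genes 4 of 14 and 2 of 14. These shares describe letters only and were not tested.

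The first question was whether overexpression of miR-26a altered the expression of proteasome genes. Values are log2 processed signals after quantile normalization, and differences are on that scale. They were fitted with limma on the 6 arrays together, with terms for group and experiment, and a probe was called at a Benjamini-Hochberg adjusted p under 0.05 over all 20168 probes. With miR-26a, 0 of the 56 proteasome probes were called, whereas 9.64% of all probes tested were (4.50% higher and 5.14% lower). Among the brighter 10084 of the tested probes the share was 7.71%. At an unadjusted p under 0.05, 2 proteasome probes were higher (Psmg4 and Psmd1) and 2 lower (Psmd10 and a dim probe of Psme2), whereas 27.3% of all probes passed that limit. The unpaired test named in the study's legends and the test of the within-experiment log ratios called 0 of all probes after adjustment, with 3 and 4 proteasome probes at an unadjusted p under 0.05.

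The differences were small. In bulk RNA of a culture, fewer cells that express a gene and less RNA per cell cannot be told apart. The median over the 56 probes was 0.02 and that over all tested probes 0.01, and the median size without regard to sign was 0.05 against 0.12. A difference of at least 0.26 in size was seen for 1 proteasome probe and for 20.7% of all tested probes (14.8% of the brighter ones). The 95% intervals had a median half-width of 0.18 (0.16 to 0.38), and 53 of 56 intervals lay wholly within 0.5 of 0. A proteasome probe of median standard error would have needed a measured difference of 0.33 to be called. Smaller true changes, and also true changes of about that size, could have gone uncalled. Both miR-26a arrays were above both control arrays for 8 probes and below both for 5, whereas 26.5% and 22.9% of all probes were. In both experiments 20 probes were higher and 13 lower than the matching control, against 37.4% and 32.4% of all, and 33 of 56 fitted differences were above 0, against 52.7%.

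**Figure D1:**
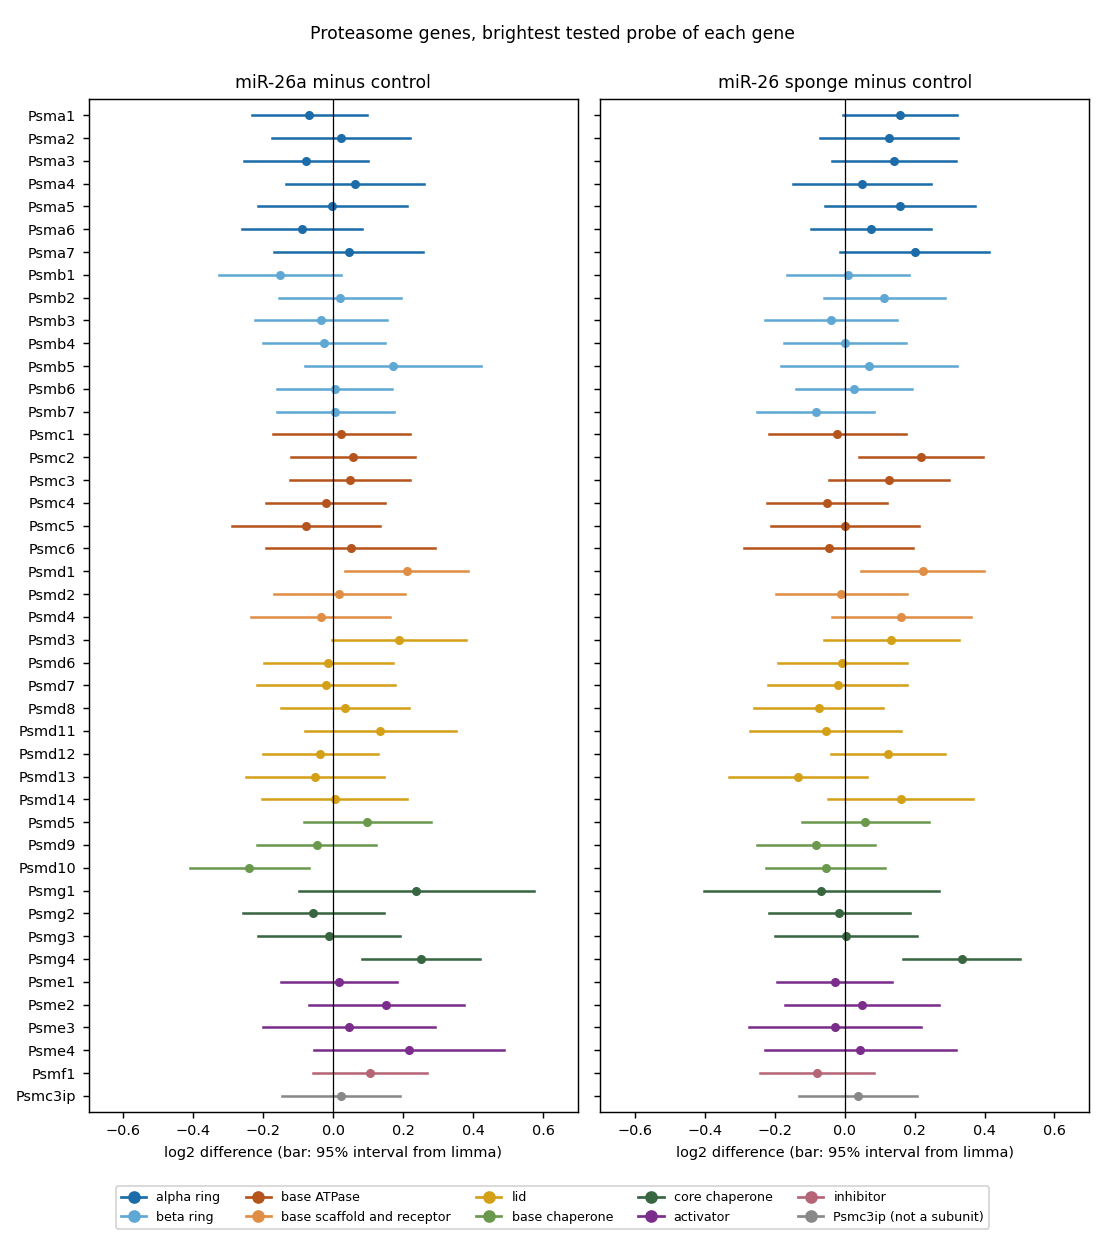
Log2 difference of each proteasome gene (brightest tested probe) from control with miR-26a (left) and with the miR-26 sponge (right), coloured by place in the complex, with 95% intervals from limma (2 arrays per group). All points lie between -0.24 and 0.33, and most intervals include 0.

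Within the core particle the median difference with miR-26a was 0.01 over 16 probes, of which 9 were above 0. The alpha ring, which forms the gate of the barrel, had a median of 0.01 over 8 probes and the beta ring 0.01 over 8. Of the alpha subunits, Psma6 differed by -0.09 and Psma3 by -0.08. Psmb1, a beta subunit without proteolytic activity, measured 14.49 and 14.55 on the control arrays, 14.37 and 14.36 with miR-26a, and 14.56 and 14.50 with the sponge. Both miR-26a values were thus the lowest of the 6, and the difference from control was -0.15 (SE 0.07, adjusted p = 0.232, limma). Psmb5, which carries the chymotrypsin-like activity, measured 15.87 and 15.89 in control, 15.98 and 16.12 with miR-26a and 16.06 and 15.84 with the sponge on its brighter probe. The miR-26a arrays were above both controls (difference 0.17, interval -0.08 to 0.42, adjusted p = 0.345, limma), and a second Psmb5 probe gave 0.10. The other catalytic subunits Psmb6 (caspase-like) and Psmb7 (trypsin-like) differed by 0.00 and 0.01, with intervals reaching no further than 0.17.

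Within the regulatory particle the median was 0.02 over 21 probes, of which 12 were above 0. The core and regulatory particle medians were 0.01 and 0.01 in experiment 1 and 0.00 and 0.03 in experiment 2. The base ATPases, the motor that threads substrates into the core, had a median of 0.02 over 9 probes and a range from -0.09 to 0.06, with Psmc5 at -0.08. The lid had a median of 0.00 over 9 probes, and Psmd14, its deubiquitinase, differed by 0.00. Psmd3, a lid subunit, differed by 0.19 and was higher in both experiments (0.20 and 0.18, adjusted p = 0.192, limma).

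Psmd1, the larger scaffold subunit of the base (probe at chr1:88035777-88035836, mm9), measured 14.06 and 13.80 on the control arrays of experiments 1 and 2. It measured 14.20 and 14.08 with miR-26a, and 14.25 and 14.06 with the sponge. The lowest value with either construct lay just above the highest control value. The difference from control was 0.21 with miR-26a (interval 0.03 to 0.39, adjusted p = 0.129) and 0.22 with the sponge (0.05 to 0.40, adjusted p = 0.254, both limma). The miR-26a and sponge comparisons share the control arrays, and between miR-26a and sponge themselves the Psmd1 difference was -0.01 (-0.19 to 0.16). Psmd2, the other scaffold, differed from control by 0.02 and -0.01, and the ubiquitin receptor Psmd4 by -0.04 with miR-26a and 0.16 with the sponge.

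The chaperones held the members with the smallest adjusted p in each comparison with control. Psmg4, a partner of Psmg3 in building the alpha ring (probe at chr13:34269918-34269977, mm9), measured 11.26 and 10.96 in control, 11.49 and 11.24 with miR-26a and 11.62 and 11.28 with the sponge. In each experiment both constructs were above the control, while the second miR-26a array lay just below the first control array. The difference was 0.25 with miR-26a (SE 0.07, adjusted p = 0.0781) and 0.33 with the sponge (SE 0.07, adjusted p = 0.220, both limma), and -0.08 between miR-26a and sponge (interval -0.25 to 0.08). Psmg3 itself differed by -0.01 and 0.00, and Psmg2, partner of Psmg1, by -0.06 and -0.02.

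Psmg1 measured 13.58 and 13.44 in control, 13.86 and 13.64 with miR-26a, and 13.77 and 13.12 with the sponge on its brighter probe. The sponge arrays thus lay on either side of control. The miR-26a difference was 0.24 with a wide interval, from -0.10 to 0.57 (adjusted p = 0.326, limma), and 0.08 on the second Psmg1 probe. Between miR-26a and sponge it was 0.30 on the brighter probe and 0.03 on the other.

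Psmd10 (gankyrin), a chaperone of the base, measured 10.27 and 10.24 in control, 10.07 and 9.95 with miR-26a and 10.22 and 10.18 with the sponge on its brighter probe. The array design gives that probe a span of 2897 bases (chrX:137483840-137486736, mm9). Both miR-26a arrays were the lowest of the 6. The difference was -0.24 from control (interval -0.41 to -0.07, adjusted p = 0.0893) and -0.19 from the sponge (-0.36 to -0.02, adjusted p = 0.120, both limma). The second Psmd10 probe gave -0.11 and -0.17. The other base chaperones Psmd5 and Psmd9 differed from control by 0.10 and -0.05 with miR-26a.

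**Figure D2:**
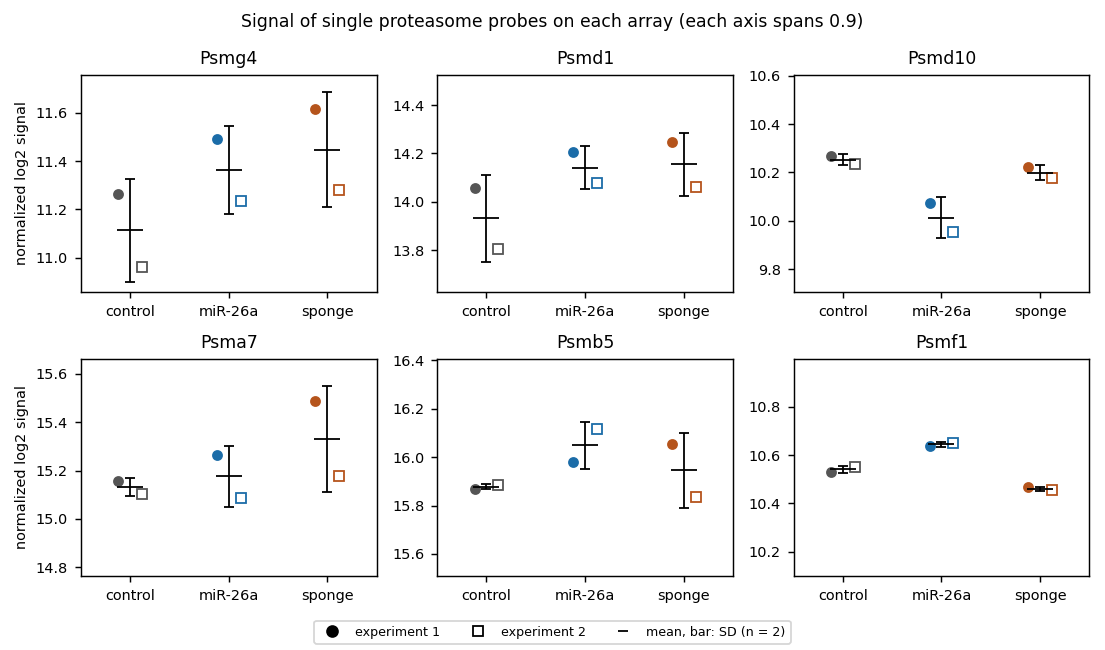
Normalized log2 signal of 6 proteasome probes on each of the 6 arrays (filled circles, experiment 1; open squares, experiment 2), with the mean and SD of each group (n = 2); each axis spans the same width and does not start at 0. The Psmg4 and Psmd1 signals are higher with both constructs than with control within each experiment, the miR-26a values of Psmd10 are the lowest, and Psmf1 values lie in separate narrow bands.

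Activators replace or join the regulatory particle at the ends of the core. Their median with miR-26a was 0.10 over 7 probes, 6 of them above 0 and 3 of them probes of Psme2. It was 0.10 in experiment 1 (6 above 0) and 0.02 in experiment 2 (4 above 0). Psme4 (PA200, a nuclear activator) measured 9.65 and 9.62 in control but 10.06 and 9.65 with miR-26a. Its difference of 0.22 came from experiment 1 (0.41, against 0.03 in experiment 2) and was 0.04 without miR-26a replicate 1. Psme1, which pairs with Psme2 in the interferon-inducible cap PA28, differed by 0.02, and Psme3, the nuclear PA28 gamma, by 0.04.

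The 3 probes of Psme2 did not move together. Its bright probes differed by 0.15 and 0.10 with miR-26a, while the dim one measured 6.98 and 7.07 in control, 6.49 and 6.91 with miR-26a and 6.79 and 7.04 with the sponge, a difference of -0.32 (adjusted p = 0.10, limma). The array design places the dim probe over a stretch of 219297 bases (chr14:56209736-56429032, mm9), unlike the others, which span 60 and 459 bases. It is the only proteasome probe with a miR-26a difference of 0.26 or more in size. Of the 11 genes with several tested probes, 7 had the same direction on all of them with miR-26a, 6 with the sponge and 9 between the constructs, and the largest gap was that of Psme2 in each. The 2 probes of Psmc2 share 50 of their bases and gave 0.06 and -0.09 with miR-26a.

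Psmf1 (PI31), an inhibitor of the core in vitro, measured 10.53 and 10.55 in control, 10.64 and 10.65 with miR-26a and 10.47 and 10.46 with the sponge (probe at chr2:151555353-151555412, mm9). The 3 groups did not overlap and their order was the same in both experiments, miR-26a above control and control above sponge. The differences were 0.10 with miR-26a (interval -0.06 to 0.27) and -0.08 with the sponge (-0.24 to 0.08), and 0.18 between the constructs (0.02 to 0.35, adjusted p = 0.112, limma). With normexp background correction in place of the processed signals, the last difference was 0.25 and was called (adjusted p = 0.0439).

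The second question was what blocking miR-26 with the sponge did to the same genes. In this comparison 0 of 56 proteasome probes were called by limma, and only 2 of all tested probes were (0.00992%). The weaker of the 2 called probes had a difference 20.57 times its standard error. For a proteasome probe of median standard error that ratio corresponds to a difference of 1.49, so the absence of calls carries little weight. At an unadjusted p under 0.05, 4 proteasome probes were higher (Psmg4, Psmd1, the brighter probe of Psmc2 and the dimmer probe of Psma4) and 0 lower, against 7.38% and 8.72% of all. The unpaired test and the test of the log ratios gave 2 and 4 at that limit and called none after adjustment. The median difference was 0.02, against 0.00 over all probes, and the median size 0.06 against 0.10. Only Psmg4 reached a difference of 0.26, whereas 11.2% of all probes did (5.62% of the brighter ones), and 55 of 56 intervals lay within 0.5 of 0. Sponge arrays were above both controls for 13 probes and below both for 10, against 17.3% and 20.4% of all probes. In both experiments 24 were higher and 16 lower than control (33.7% and 32.1% of all probes), and 32 of the 56 fitted differences were above 0 (51.4% of all). Without the Psmc3ip probe, 55 probes had a median sponge difference of 0.01. Of these, 12 were above both controls, 23 were higher in both experiments and 31 had a fitted difference above 0.

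**Figure D3:**
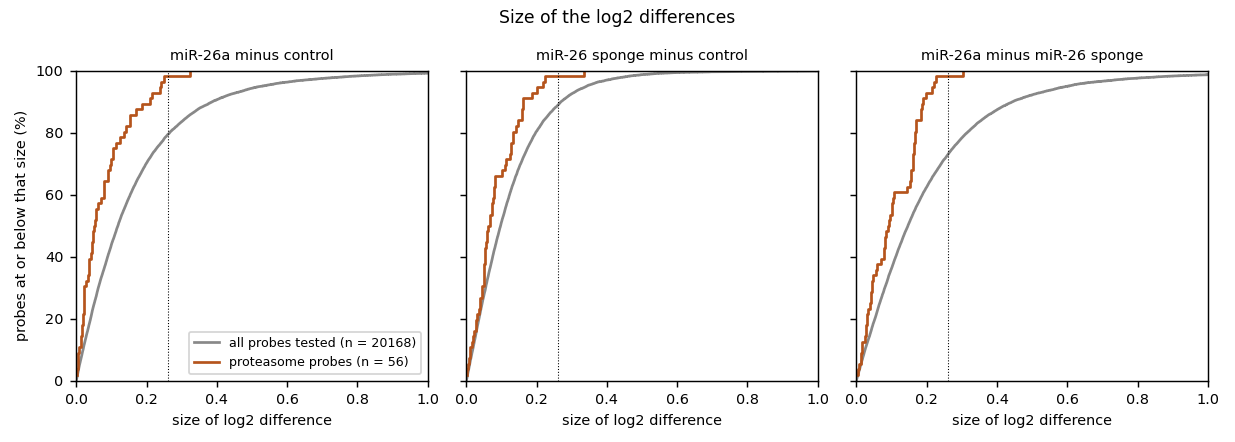
Cumulative share of probes (in percent) by the size of the log2 difference, for the 56 proteasome probes and all 20168 probes tested, in the 3 comparisons; the dotted line marks 0.26. In each panel the proteasome curve lies to the left of the curve of all probes above a size of 0.1, with 1 proteasome probe beyond the line.

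With the sponge the core median was 0.07 over 16 probes (13 above 0) and the regulatory particle median 0.00 over 21 (11 above 0). This gap is a description with no test. The alpha ring had the highest median of the core rings, base ATPases and lid (0.15). The base scaffolds and ubiquitin receptor, also of the regulatory particle, had a higher one, 0.16 over 3 probes. The medians depended on the scaling. Scaled to the 75th percentile, which moved the median of all probes to 0.03, the core median was 0.13 and the regulatory particle median 0.08, with 9 of 9 base ATPase probes, 8 of 9 lid probes and 7 of 8 beta ring probes above 0. The alpha ring median was then 0.20. Without that scaling, all 8 alpha ring probes had a sponge difference above 0, from 0.05 for the brighter Psma4 probe to 0.20 for Psma7. Their median was 0.15, whereas the beta ring had a median of 0.01 over 8 probes, of which 5 were above 0. Of all tested probes 51.4% were above 0. None of the alpha ring probes was called, and the smallest adjusted p was 0.289 (limma). Psma7 (chr2:179771149-179771208, mm9) measured 15.16 and 15.10 in control, 15.26 and 15.09 with miR-26a and 15.49 and 15.18 with the sponge. Psma1 (chr7:121408229-121408288, mm9) measured 14.73 and 14.62 in control, 14.64 and 14.57 with miR-26a and 14.89 and 14.77 with the sponge. For both, the sponge arrays were above both control arrays, which held for 4 of the 8 probes and for 17.3% of all tested probes.

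The size of the alpha ring difference was not the same in the 2 experiments. In experiment 1 its median was 0.22 and in experiment 2 it was 0.07, with 8 and 7 probes above 0. Without sponge replicate 1 the median was 0.07 (7 of 8 above 0), and without sponge replicate 2 it was 0.21. The core median likewise went from 0.12 in experiment 1 to 0.02 in experiment 2, while that of the regulatory particle was 0.04 in both, so the core lay above the regulatory particle in experiment 1 and below it in experiment 2. Within the regulatory particle, Psmd1 (0.22), Psmc2 (0.22), Psmd4 (0.16) and Psmd14 (0.16) had the same order of sponge difference as the alpha ring. The lid subunits Psmd13 and Psmd8 had -0.13 and -0.07. The beta subunit Psmb7 and the chaperone Psmd9 had -0.08 each. T cell and myeloid markers also differed in the sponge arrays without being called (Cd4 -0.32, Cd3e -0.29, Csf1r -0.69), and their part in these differences was not tested.

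**Figure D4:**
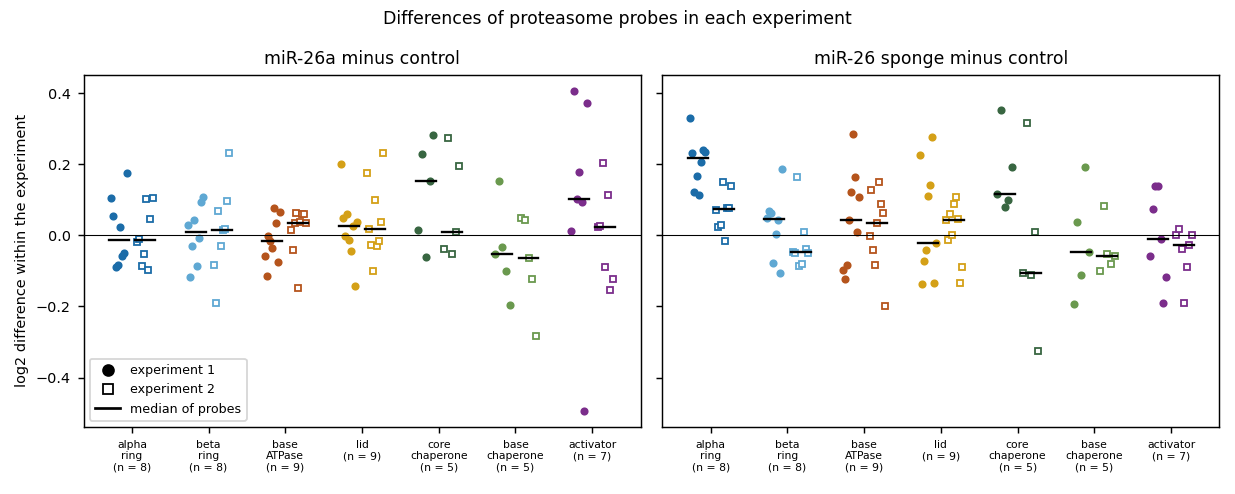
Log2 difference from the control array of the same experiment for proteasome probes grouped by place in the complex, with miR-26a (left) and the sponge (right); filled circles are experiment 1, open squares experiment 2, and bars the median of the probes, which are no replicates. With the sponge the alpha ring median is 0.22 in experiment 1 and 0.07 in experiment 2, and with miR-26a both lie near 0.

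The 2 constructs were then set against each other. Between miR-26a and sponge 16.8% of all tested probes were called (8.28% higher with miR-26a, 8.49% lower, and 13.8% of the brighter ones), but 0 of 56 proteasome probes, and a proteasome probe of median standard error would have needed 0.29. At an unadjusted p under 0.05, Psmf1 was higher and Psma1, Psma3 and Psmd10 were lower with miR-26a, against 18.7% and 15.9% of all probes (34.6% together), and the unpaired test and the test of the log ratios gave 2 and 5 proteasome probes. A difference of 0.26 in size was reached by Psmg1 alone, against 27.1% of all probes (20.2% of the brighter ones). The 2 miR-26a arrays lay above both sponge arrays for 8 probes and below both for 9, against 28.0% and 22.9% of all. In both experiments 13 probes were higher and 21 lower (38.7% and 32.4% of all), and 26 of 56 fitted differences were above 0 (53.5% of all). The median was -0.07 for the core and -0.01 for the regulatory particle. For Psma1 the difference was -0.23 (interval -0.39 to -0.06, adjusted p = 0.0713, limma) and for Psma3, another alpha subunit, -0.22 (-0.40 to -0.04, adjusted p = 0.090). Both sponge arrays also enter the comparison with control. Psma6 differed by -0.16 and Psmd4 by -0.20, while the lid subunits Psmd11 and Psmd8 differed by 0.19 (interval -0.03 to 0.41) and 0.11. The alpha ring median was -0.16, and -0.06 without sponge replicate 1. Psme4 was called when miR-26a replicate 2 was left out, with a single miR-26a array assumed to vary like the other groups.

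A larger share of proteasome probes than of all probes differed between the experiments. The signal was lower in experiment 2 than in experiment 1 in all 3 groups for 33 of the 56 probes (58.9%), against 27.0% of all tested probes, and higher in all 3 groups for 3, against 23.8%. The median change from experiment 1 to 2 was -0.10, against -0.01 over all probes, and it was present in control (-0.07), miR-26a (-0.08) and sponge (-0.12) alike. The core chaperones were lower in all 3 groups with 5 of 5 probes (median -0.30), the base chaperones with 4 of 5 (-0.12), the alpha ring with 7 of 8 (-0.15) and the beta ring with 3 of 8 (-0.02). These shares are a description and were not tested. Replicates of a group differed by a median of 0.09 in control, 0.10 with miR-26a and 0.15 with the sponge over the proteasome probes, and by 0.10, 0.12 and 0.15 over all. Clone, culture and slide row all changed with the experiment and cannot be told apart.

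**Figure D5:**
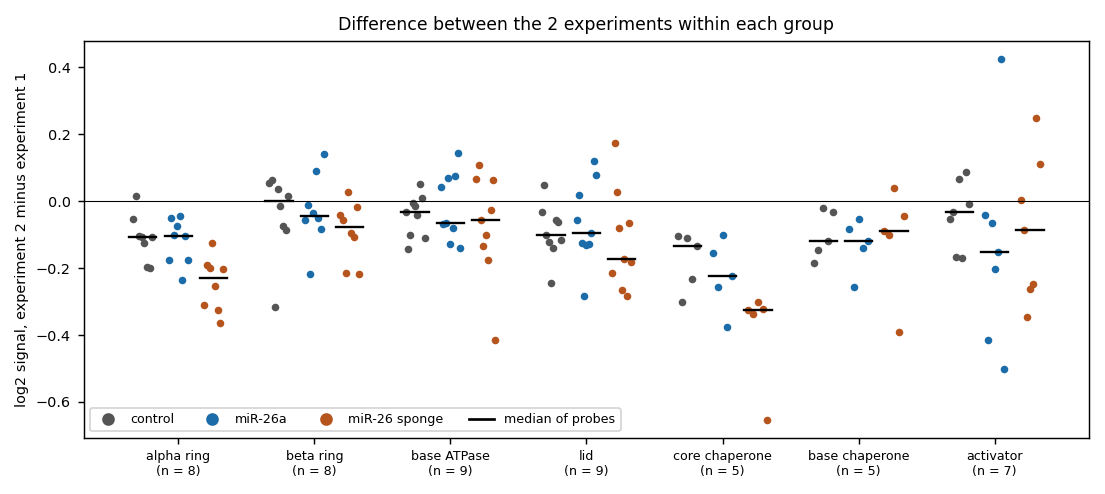
Log2 signal in experiment 2 minus that in experiment 1 for proteasome probes within each group (colours), by place in the complex, with the median of the probes as a bar. The core chaperones lie below 0 in all 3 groups, while the beta ring medians are 0.00 in control, -0.04 with miR-26a and -0.08 with the sponge.

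Other genes of the ubiquitin and proteasome pathway were looked at beside the subunits, 27 of them on the array and all tested. With miR-26a 1 of the 27 was higher and 0 lower (4.50% and 5.14% of all probes), with the sponge 0 were called, and between the constructs 2 were higher with miR-26a and 0 lower (8.28% and 8.49% of all). These counts are no larger than the shares over all probes. The medians were 0.07, 0.00 and 0.11. The shuttle factor Ubqln4, which carries ubiquitinated proteins to the proteasome, measured 9.17 and 9.15 in control, 9.49 and 9.45 with miR-26a and 9.15 and 9.09 with the sponge. It rose with miR-26a by 0.31 (SE 0.07, adjusted p = 0.0441, limma), and the 2 miR-26a arrays stood above the other 4. Nploc4, a cofactor of the segregase Vcp, was higher with miR-26a than with the sponge by 0.31 (adjusted p = 0.0385), while its difference from control was 0.17 (adjusted p = 0.182). All 5 shuttle genes differed from control by more than 0 with miR-26a, from 0.12 for Ubqln2 to 0.31, and 1 of the 5 was called. Of all tested probes 52.7% were above 0 and 4.50% were called higher. The shuttle genes were not tested as a set.

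Nfe2l1, the transcription factor for proteasome genes, differed by 0.15 with miR-26a (adjusted p = 0.217), and Ddi2, the protease that releases it, by 0.28 (adjusted p = 0.0781, both limma). The Nfe2l1 probe was dim, with log2 signals of 6.3 to 6.4, though well above background on all 6 arrays. The 3 immunoproteasome subunits differed from control by 0.01 to 0.07 with miR-26a and by -0.17 (Psmb8), -0.12 (Psmb9) and 0.02 (Psmb10) with the sponge. None was called, and between the constructs Psmb8 differed by 0.24 (adjusted p = 0.0703, limma). Pomp, the maturation factor of the core, differed by -0.10 and 0.06, and Adrm1, a ubiquitin receptor, by 0.07 and -0.04. Psmc3ip, a meiotic recombination factor that is no proteasome gene, differed by 0.02, 0.04 and -0.02 in the 3 comparisons.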

How the data were processed

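Total RNA of 6 samples was labelled with Cy3 and hybridized to single-colour Agilent mouse arrays. For each array the authors deposited a scanner file (Feature Extraction 10.7.1.1 per the labels). It holds the mean, the background and the processed, background-subtracted intensity of every spot. They also deposited a quantile-normalized intensity table. That table is on a linear scale (column medians 12.37 to 12.38), and its log2 correlated with the log2 processed signals of the same array, with a lowest value of 0.99987. Here the processed signals were brought to the same quantiles on each array and taken to log2, and spots of the same probe were averaged. Control spots and outlier flags were dropped, except for the 0 to 7 probes of an array with no unflagged spot. The software had substituted a lowest value for 29.6% to 33.6% of the spots of an array, which limits dim probes. No array lies far from the others, with replicate correlations of 0.996 to 0.997, and the 2 arrays per group limit the precision. The test took probes flagged well above background on 1 array or more whose processed signal exceeded 50 on 4 or more arrays. limma 3.58.1 (R 4.3.3) was fitted with group and experiment as terms. The experiment is the replicate number of the labels. Arrays with the same number deviated together, with correlations of 0.38, 0.59 and 0.45, so the numbers were taken to pair them. The control titles also quote other accessions, so the controls may come from an earlier series. The limma p-values set a difference against the spread left between these arrays after the group and experiment terms. That spread is estimated with information shared across probes.

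Several probes of a gene were kept apart, and the brightest stood for the gene. The members and lists were chosen with earlier results of these data known. Genes were named in the text by role and as the 5 with the largest difference each way in a comparison, and genes of special role (catalytic, scaffold, deubiquitinase). One gene of the marker lists is not reported here. Probe coordinates are those of the array design (mm9). No genome of that build was used, so exon and intron are not given. Alternatives were no block, 75th percentile scaling, normexp with an offset of 50, the authors' values, 3 other filters, averaged probes, 2 other tests and leaving out each array. The script was tested on simulated arrays with 200 of 20168 probes changed in the miR-26a group. It recovered 91% of changes of 1 and 12% of changes of 0.5. Those arrays gave 107 calls, fewer than the 1944 of the data. Python 3.11.15, numpy 2.4.6, pandas 2.3.3 and matplotlib 3.10.9 were used.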

Additional observations from a re-analysis of the deposited data

How the results depend on the processing

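The number of proteasome probes called was 0 in each direction and comparison, and it stayed 0 under all alternatives that were run, with 2 exceptions between miR-26a and sponge, 1 higher with normexp (Psmf1) and 1 higher without miR-26a replicate 2 (Psme4). Without the replicate block 0 of 56 were called, while the calls over all probes went from 1944 to 311 for miR-26a, from 3381 to 997 between the constructs and stayed at 2 for the sponge. The block kept each difference and changed only its error. With no filter on dim probes, and with both other tests, 0 of all probes were called in any comparison, so those settings say nothing about the proteasome probes. 75th percentile scaling moved the median of all probes by 0.01 to 0.03.

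With 75th percentile scaling the core median was 0.0123 for miR-26a, 0.13 for the sponge and -0.119 between the constructs, and the regulatory particle median was 0.0786 for the sponge and -0.064 between the constructs. The regulatory particle sponge median was 0.0448 with normexp, 0.0080 with the authors' values and -0.0062 with probes of a gene averaged. Averaging also gave 0.0010 for the core with miR-26a and -0.0979 for core minus regulatory particle between the constructs. The sponge medians under 75th percentile scaling differ from those reported by about as much as core and regulatory particle differ from each other.

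Leaving out each array in turn moved the core median from -0.025 to 0.0391 for miR-26a, from 0.0157 to 0.129 for the sponge and from -0.0929 to -0.0164 between the constructs. The regulatory particle median ran from -0.0119 to 0.0389, from 0.0016 to 0.0622 and from -0.0304 to 0.0035 in the same comparisons. Core minus regulatory particle ran from -0.0374 to 0.0050, from -0.0334 to 0.0702 and from -0.0693 to 0.0028. Single-gene differences reported as at least 0.1 in size were each recomputed under every alternative, which gave 592 values. Of these recomputed values 5 had the other sign, so 592 is not a number of genes or reported differences. Between the constructs, the lowest value without 1 array was -0.0464 for Psmb5, -0.0125 for Psme2 and -0.0063 for Psme4.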
